A study of Mus musculus with 8 samples.

Results

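The 9 genes described here encode enzymes of sulfur amino acid and methyl metabolism in mouse liver. They were chosen by symbol from the 24197 genes of the deposited table, and all 9 were found there. Csad was put on the list because of its fall in knockout males, so its values in that comparison are given as a description without a test. The other 8 are Cdo1, Cbs, Cth, Bhmt, Mat1a, Gnmt, Ahcy and Papss2, which were added for their place in the same pathways.

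Methionine is turned into S-adenosylmethionine, the methyl donor of the cell, which leaves homocysteine once its methyl group has been passed on and the adenosine split off. Homocysteine is either methylated back to methionine or passed through transsulfuration to cysteine. Liver oxidises cysteine to cysteine sulfinate, which is decarboxylated and oxidised to taurine, the amino acid joined to most bile acids in mice, or broken down to sulfate.

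Livers of 4 groups were compared, from males and females 8 to 12 weeks old. Knockout mice carried a Cre transgene under the albumin promoter, from FVB/N mice, and floxed alleles of the neighbouring genes Stat5a and Stat5b, whose products carry the growth hormone signal to hepatocyte genes. Control mice of each sex had the floxed locus, and the strain is given for all groups as a mixed C57BL/6 and 129J background. Because Cre is driven by albumin, the deletion is directed to hepatocytes, and whether other liver cells keep both genes was not measured. The groups are knockout males, control males, knockout females and control females, each with 2 libraries of RNA depleted of ribosomal RNA. A library stands for several livers pooled together, and the number in a pool is not stated.

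Levels are in FPKM, reads relative to gene length and to the read total of the library. The table lists the mean FPKM of each group. The reads of both libraries behind a mean were recovered from it, and within a group a library is known only by its depth, as the deeper or the shallower one. Library totals ran from 6192515 in the shallower control male library to 34651386 in the deeper control female library, and reads in genes from 2288039 to 11361309. A gene was called where the authors' edgeR p-value, adjusted over all listed genes, was under 0.05. The p-values measure the spread between pools, and not between animals.

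Stat5b fell 2.97-fold in knockout males and 2.58-fold in knockout females by the authors' deposited table, where the edgeR adjusted p-values were 3.1e-06 and 3.5e-06, and Stat5a 4.49-fold and 2.99-fold, where they were 1.4e-05 and 0.024. Stat5a stood at 0.130 and 0.227 FPKM in knockout males, against 0.60 and 1.16 FPKM in control males, and at 0.499 and 0.12 FPKM in knockout females, against 0.920 and 0.804 FPKM in control females, the deeper library first. Without the deeper knockout female library voom put the Stat5a difference in females at -2.94 on the log2 scale, and without the shallower one at -0.95. Stat5b stood at 0.684 and 1.03 FPKM in knockout males, against 1.95 and 3.41 FPKM in control males, and at 1.77 and 1.11 FPKM in knockout females, against 3.88 and 2.90 FPKM in control females. In every fit that leaves out a library, the arm with 1 library left is assumed to vary like the other groups. The 8 hepatocyte markers, albumin among them, summed to between 17277 and 24751 FPKM in every library. Of the 4 kidney markers 3 were at 0 reads in all libraries, and of the 4 adipocyte markers 2 were. The shallower control male library stood apart in its red blood cell markers, which summed to 211 FPKM there and to between 45.8 and 103 FPKM in the other libraries. Since these are whole livers, fewer cells of a type and less RNA per cell cannot be told apart.

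Csad encodes cysteine sulfinate decarboxylase, which makes hypotaurine, the precursor of taurine. The gene (NM_144942) lies on chromosome 15 at 102007428 to 102019474 on mm9. RefSeq lists a pair of start sites for it on GRCm38.p6, both read from the minus strand, and the 250 bases before each are shown because Csad is the member with the largest differences between libraries. Capitals would mark the STAT5 motif TTCNNNGAA, which reads the same on both strands, and neither window holds it.
Csad, chr15:102189044-102189293: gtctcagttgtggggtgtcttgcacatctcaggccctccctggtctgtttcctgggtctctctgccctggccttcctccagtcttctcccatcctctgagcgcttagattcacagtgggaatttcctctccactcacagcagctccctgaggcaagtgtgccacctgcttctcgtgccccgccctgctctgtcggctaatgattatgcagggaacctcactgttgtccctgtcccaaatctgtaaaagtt
Csad, chr15:102205053-102205302: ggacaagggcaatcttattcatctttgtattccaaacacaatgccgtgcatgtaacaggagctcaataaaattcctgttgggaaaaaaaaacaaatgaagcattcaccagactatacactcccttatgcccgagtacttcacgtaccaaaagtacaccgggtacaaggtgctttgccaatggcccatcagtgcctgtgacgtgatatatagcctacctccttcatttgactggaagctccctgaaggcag
Of the 9 genes, 6 had an entry in the RefSeq promoter table, with 8 windows in all, and 0 of these windows held the motif. Among all 32851 windows of this length, 2306 held it, which is 7.02%.

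Averaged over the 8 libraries Csad was the lowest of the 9 genes, at 12.0 FPKM, and it was the one that varied most. In knockout males it stood at 2.44 FPKM in the deeper and 4.26 FPKM in the shallower library, and in control males at 10.8 and 39.6 FPKM. Both knockout male libraries lay below both control male libraries, and the control males themselves differed 3.68-fold. In females the knockout libraries stood at 17 and 3.75 FPKM and the control libraries at 6.97 and 11.4 FPKM. The knockout females differed 4.53-fold from each other, and enclosed both control female libraries. In knockout males, control males and knockout females the library with more Csad also had more Stat5a and Stat5b, and in control females it had less of both; the part of this in the Csad values was not tested. The values rested on 175 to 1171 reads per library.

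**Figure D1:**
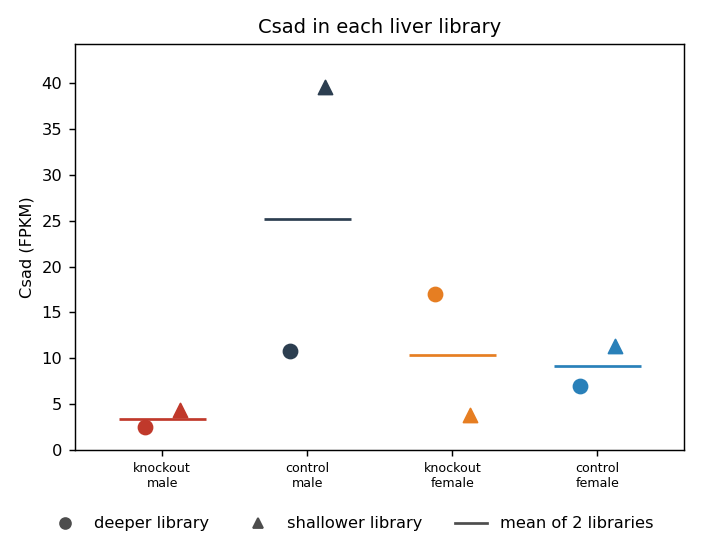
FPKM of Csad (y axis) in each of the 8 libraries, by group (x axis), with circles for the deeper and triangles for the shallower library of a group and a line at their mean. The knockout male libraries, at 2.44 and 4.26 FPKM, lie below both control male libraries, at 10.8 and 39.6 FPKM, while the knockout female libraries, at 17 and 3.75 FPKM, lie on either side of the control females.

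The mean of Csad was 3.35 ± 1.29 FPKM in knockout males and 25.2 ± 20.4 FPKM in control males (SD, n = 2 each). This was a 7.13-fold lower level in knockout males by the ratio of the authors' deposited table. Limma voom on the recovered reads put the difference at -2.58 on the log2 scale, and at -1.82 without the shallower control male library. Without the deeper control male library it was -3.52. Red blood cell markers stood high in that same shallower control male library, and their part in the Csad value was not tested.

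In females the libraries of both genotypes overlapped. The mean of Csad was 10.4 ± 9.37 FPKM in knockout females and 9.16 ± 3.10 FPKM in control females (SD, n = 2 each), and the authors' deposited table gives a ratio of 1.03 with an adjusted p of 1. The voom interval was wide, from -1.83 to 1.38 on the log2 scale. Leaving out the deeper knockout female library gave -1.34 and leaving out the shallower one 0.82, and leaving out the deeper or shallower control female library gave -0.66 or 0.13. The direction in females thus depended on which pools were kept.

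In level, Csad ran from control males through knockout females and control females to knockout males. Neighbouring groups in this order overlapped, apart from control females and knockout males. The control male libraries also overlapped the control females, since the deeper control male library at 10.8 FPKM lay below the shallower control female library at 11.4 FPKM. By the ratios of the authors' deposited table Csad was 2.37-fold higher in control males than in control females and 3.08-fold lower in knockout males than in knockout females. The knockout libraries of the sexes overlapped too, since the shallower knockout female library at 3.75 FPKM lay below the shallower knockout male library at 4.26 FPKM. Both sex comparisons use male libraries of the comparison that chose Csad, so no test is given for them. The voom difference between control males and control females was 1.04 on the log2 scale, 0.27 without the shallower control male library and 1.96 without the deeper one. Between knockout males and knockout females it was -1.32, -0.20 without the deeper knockout female library and -2.37 without the shallower one.

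A neighbour of Csad, the zinc finger gene Zfp740, overlaps it on the opposite strand in GENCODE M21, and the strand setting of the authors' read counting is not given in the sources used here. Zfp740 stood at 2.14 and 2.35 FPKM in knockout males, against 2.16 and 2.83 FPKM in control males. Over all 8 libraries it stayed between 2.14 and 2.83 FPKM. The part of reads from the overlap in the Csad values was not tested. In the same annotation Ahcy, Bhmt and Gnmt overlap a noncoding gene on the opposite strand and Cth one of unsettled type on its own strand, and reads there cannot be told apart.

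None of the other 8 genes was called in knockout males against control males, in a comparison where 2.18% of all listed genes were called by the authors' edgeR test. All 9 members passed a filter of 10 reads in 2 libraries, and among the 12981 genes that did so 4% were called. An unadjusted p under 0.05 was given to 1 of the 8, Cbs, by the authors' deposited table, where 11.1% of filtered genes did. Limma voom called 0 of the 8 and 1.52% of genes, and limma on log2(FPKM + 1) called 0 of the 8 and 0.305% of genes. Libraries of knockout and control males did not overlap for 4 of the 8, against 39.8% of filtered genes. Mat1a and Papss2 were the 2 that lay higher, beside 22% of genes, and Cbs and Gnmt the 2 that lay lower, beside 17.7%. The median log2 ratio of the 8 was 0.14, beside 0.01 over filtered genes.

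Knockout females against control females gave 0 called of 9 in the authors' edgeR test, where 1.55% of all genes and 2.85% of filtered genes were called. None of the 9 had an unadjusted p under 0.05 there, against 9.91% of filtered genes. Voom called 0 of 9 and 0.354% of genes, and limma on log2(FPKM + 1) called 0 of 9 and 0.0333% of genes. Libraries did not overlap for 3 of the 9, against 49% of filtered genes, with Bhmt and Mat1a higher, beside 39.8%, and Cbs lower, beside 9.27%. The gaps of Bhmt and Mat1a were smaller than the 0.14 (log2) by which ratios of mean FPKM exceeded the authors' ratios in this comparison.

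For control males against control females the authors' edgeR test called 0 of the 8 genes besides Csad, where 1.47% of all genes and 2.68% of filtered genes were called. At an unadjusted p under 0.05 stood 4 of the 8, against 10.7% of filtered genes. Bhmt was higher in control males, and Cdo1, Mat1a and Papss2 lower. Voom called 0 of 8 and 0.763% of genes, and limma on log2(FPKM + 1) called 0 of 8 and 0.355% of genes. Libraries did not overlap for 3 of the 8, against 45.3%, with Bhmt higher, beside 31.3%, and Cdo1 and Mat1a lower, beside 14%.

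Knockout males against knockout females gave 0 called of these 8 in the authors' edgeR test, beside 1.01% of all genes and 1.84% of filtered genes. At an unadjusted p under 0.05 stood 2 of the 8, Cdo1 and Cbs, both lower in knockout males, beside 7.38% of filtered genes. Voom called 0 of 8 and 0.385% of genes, and limma on log2(FPKM + 1) called 0 of 8 and 0.0889% of genes. Libraries did not overlap for 4 of the 8, beside 37.5%, with Bhmt higher, beside 16.9%, and Cdo1, Cbs and Mat1a lower, beside 20.6%. Each sex comparison shares its libraries with the knockout comparisons.

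**Figure D2:**
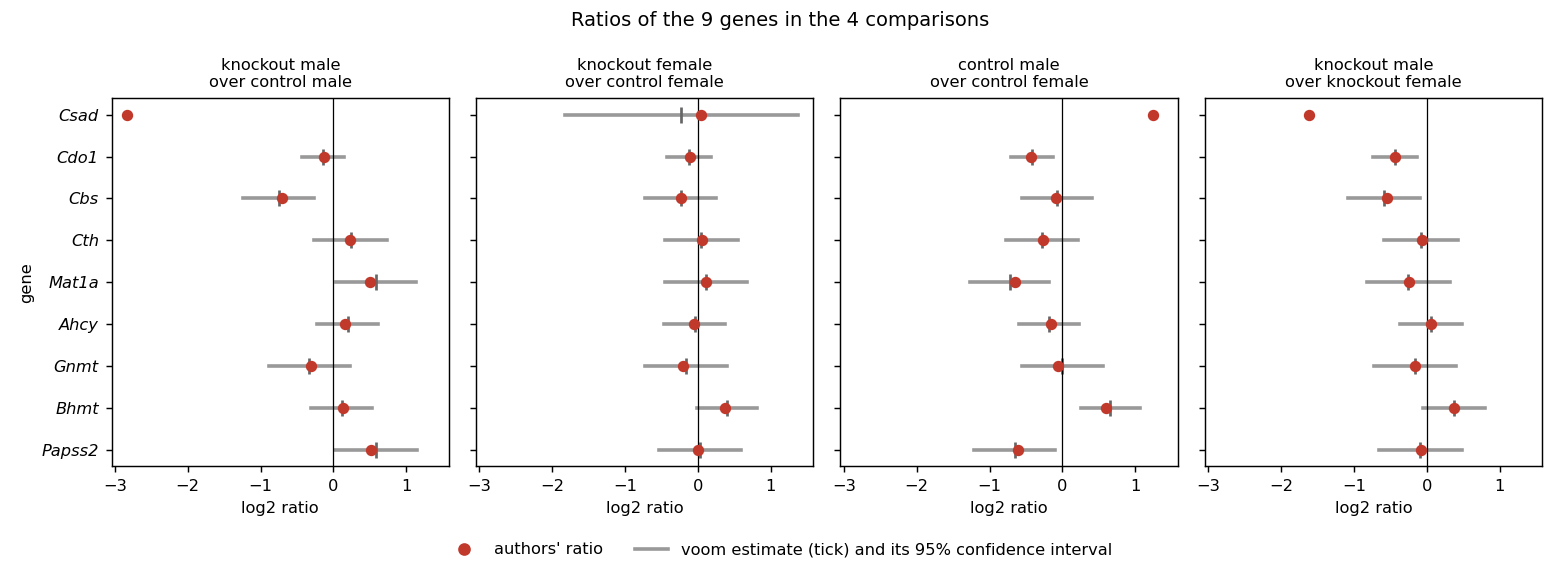
Log2 ratio (x axis) of each of the 9 genes (y axis) in the 4 comparisons, with the ratio of the authors' deposited table as a red point and the voom estimate as a tick with its 95% confidence interval, drawn for Csad only in knockout against control females. Csad in knockout against control males stands at -2.83, and the ratios of the other 8 genes lie between -0.70 and 0.60.

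Cdo1 encodes cysteine dioxygenase, which makes the substrate of the Csad enzyme. It lies on chromosome 18 at 46872858 to 46887996 on mm9. Its levels were far above those of Csad and moved little, with 218 and 246 FPKM in knockout males and 226 and 289 FPKM in control males, and with 339 and 297 FPKM in knockout females and 301 and 324 FPKM in control females. Males were lower than females in both genotypes without overlap between the libraries. By the authors' deposited table the sex difference was 1.35-fold in each genotype, with edgeR unadjusted p-values of 0.038 in controls and 0.030 in knockouts and adjusted p-values of 0.71 and 0.89. Per length, Cdo1 exceeded Csad 89.2-fold and 57.7-fold in knockout males, against 21-fold and 7.31-fold in control males. Knockout females gave 19.95-fold and 79.2-fold, control females 43.1-fold and 28.5-fold. The difference in males restates the fall of Csad that put it on the list, and is no further result.

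Transsulfuration is carried by Cbs, cystathionine beta-synthase, and Cth, cystathionine gamma-lyase, which frees cysteine from cystathionine. Cbs (chromosome 17, 31749567 to 31774150 on mm9) stood at 25.1 and 42.9 FPKM in knockout males, against 44.7 and 67.9 FPKM in control males. Both knockout male libraries lay below both control male libraries, though the shallower knockout male library came close to the deeper control. Cbs was 1.63-fold lower by the authors' deposited table, where edgeR gave an unadjusted p of 0.0091 and an adjusted p of 0.26. Voom gave -0.75 with an interval from -1.23 to -0.27 and an adjusted p of 0.15, and -1.07 without the shallower knockout male library, where Cbs passed the threshold in a fit with 1 knockout male library and a spread taken from the other groups. Without the deeper knockout male library the difference was -0.41. In females Cbs stood at 51.4 and 48.8 FPKM in knockouts and 53.1 and 53.7 FPKM in controls, 1.17-fold lower by the authors' deposited table with an edgeR adjusted p of 1.

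Cth (chromosome 3, 157557211 to 157588027 on mm9) had overlapping libraries in every comparison. It stood at 49.9 and 66.4 FPKM in knockout males and 36.1 and 66.2 FPKM in control males, and at 55.5 and 68.5 FPKM in knockout females and 56.3 and 52.5 FPKM in controls. The control male libraries differed 1.83-fold, more than the 1.21-fold between the highest and lowest group mean. The voom interval for knockout against control males ran from -0.26 to 0.74 on the log2 scale, with an adjusted p of 0.67.

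The methyl cycle starts with Mat1a, which encodes the S-adenosylmethionine synthetase of adult liver. Mat1a (chromosome 14, 41918321 to 41937717 on mm9) stood at 279 and 342 FPKM in knockout males and 265 and 171 FPKM in control males, the lowest group. Knockout females had 349 and 400 FPKM and control females 340 and 290 FPKM. Knockout libraries lay above the control libraries in both sexes, narrowly so between 279 and 265 FPKM in males. In females the gap between 349 and 340 FPKM was within the shift of 0.14 between mean FPKM and the authors' ratios. By the authors' deposited table the ratio was 1.41 in males, with an edgeR adjusted p of 0.91, and 1.08 in females, with 1. Control males stood 1.57-fold below control females in the authors' deposited table (edgeR unadjusted p 0.017, adjusted p 0.48). Without the deeper control male library voom put this sex difference at -1.09, past the threshold in a fit with only the shallower control male library and a spread taken from the other groups. Without the shallower library it was -0.28.

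Papss2 encodes a synthase of PAPS, the sulfate donor of the sulfotransferases, and lies on chromosome 19 at 32694494 to 32741677 on mm9. Its pattern was close to that of Mat1a, with 32.7 and 35.6 FPKM in knockout males and 28.8 and 18.3 FPKM in control males, and 34.2 and 39.5 FPKM in knockout females and 38.7 and 28.2 FPKM in control females. Knockout and control libraries did not overlap in males and did in females. The ratio in males was 1.43 by the authors' deposited table, where edgeR gave an unadjusted p of 0.059 and an adjusted p of 0.84. Control males were 1.53-fold below control females by the authors' deposited table, with an edgeR unadjusted p of 0.031 and an adjusted p of 0.64. The libraries of these groups overlapped. Without the deeper control male library voom put the Papss2 difference at 0.99 on the log2 scale for knockout against control males and at -1.05 for control males against control females, and without the shallower one at 0.16 and -0.22. Over the 8 libraries the log2(FPKM + 1) levels of Mat1a and Papss2 had a Pearson correlation of 0.96, the highest among the 36 pairs of members. Without the shallower control male library it was 0.86, and Cth and Mat1a, at 0.87, were the highest pair. These points share their library totals and come from the same 8 pools, so the value is a description.

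Gnmt and Ahcy carry the next steps of the cycle. Gnmt, glycine N-methyltransferase, uses up S-adenosylmethionine when it is abundant, and lies on chromosome 17 at 46862612 to 46866114 on mm9. It stood at 258 and 379 FPKM in knockout males, below the 389 and 405 FPKM in control males, and at 305 and 414 FPKM in knockout females, within the 474 and 281 FPKM of control females. Gnmt in males was 1.24-fold lower by the authors' deposited table, where the edgeR adjusted p was 1. Ahcy, adenosylhomocysteinase, splits the product of methyl transfer and lies on chromosome 2 at 154885047 to 154900233 on mm9. Ahcy was the steadiest of the 9 genes, between 57.4 and 75.6 FPKM over all 8 libraries. Its libraries overlapped in every comparison.

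Bhmt, betaine-homocysteine methyltransferase, returns homocysteine to methionine with a methyl group from betaine. Bhmt (chromosome 13, 94386845 to 94407713 on mm9) ran opposite to Cdo1 between the sexes. It stood at 429 and 440 FPKM in knockout males and 345 and 464 FPKM in control males, and at 312 and 369 FPKM in knockout females and 286 and 195 FPKM in control females. Male libraries lay above female libraries in controls and in knockouts. Knockout females lay above control females by a gap, 312 to 286 FPKM, that was within the shift of 0.14 between mean FPKM and the authors' ratios. Bhmt was 1.52-fold higher in control males than in control females by the authors' deposited table, where edgeR gave an unadjusted p of 0.011 and an adjusted p of 0.35. It was 1.29-fold higher in knockout than in control females by the authors' deposited table, with 0.074 and 1. Voom put the sex difference of controls at 0.66 with an interval from 0.25 to 1.06 and an adjusted p of 0.19. Per length, Bhmt exceeded Cbs, its competitor for homocysteine, 17.1-fold and 10.3-fold in knockout males, against 7.72-fold and 6.84-fold in control males. Knockout females gave 6.07-fold and 7.56-fold, control females 5.39-fold and 3.63-fold.

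**Figure D3:**
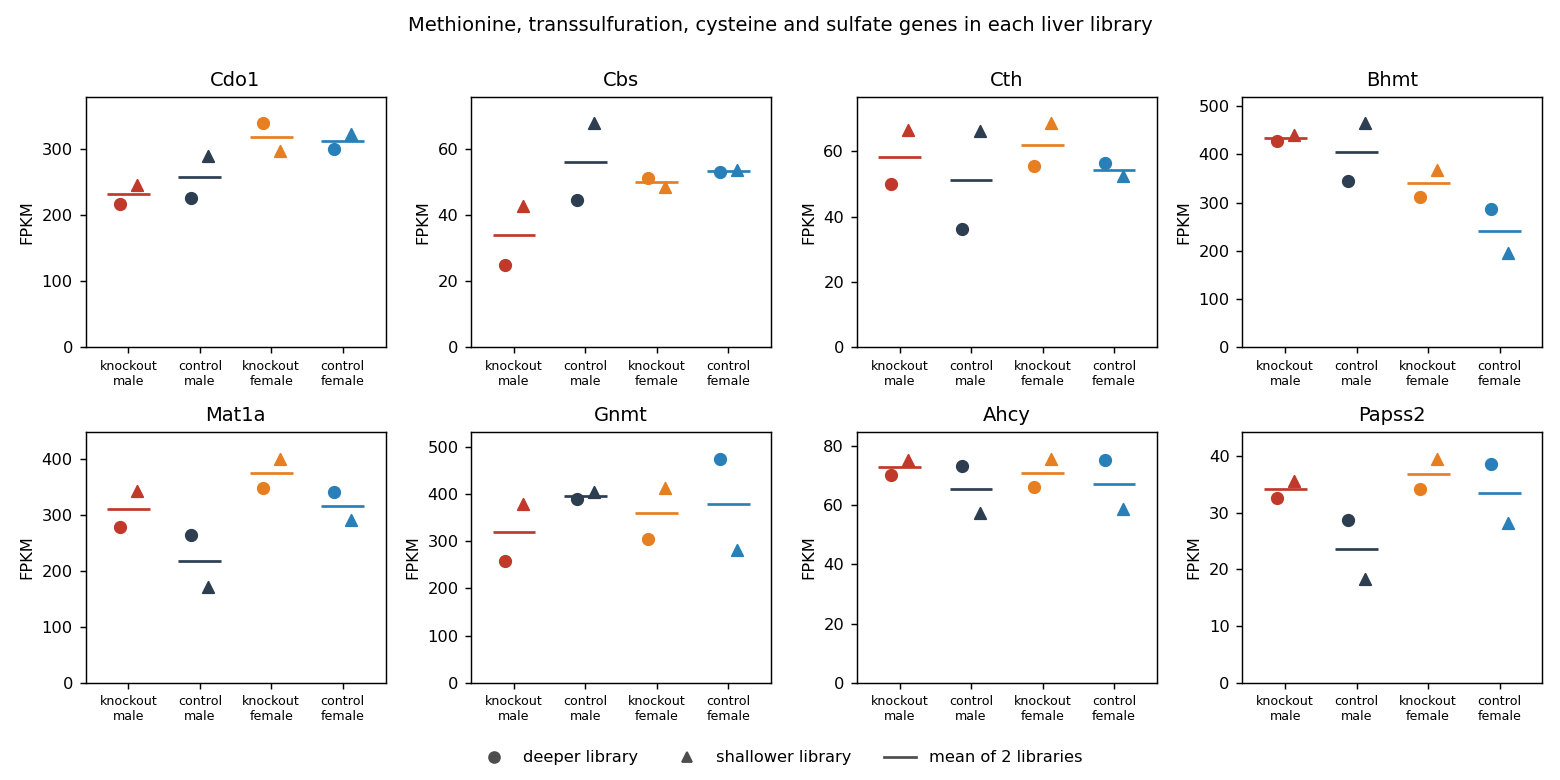
FPKM (y axis of each panel) of the 8 genes besides Csad in each library, by group (x axis), with circles for the deeper and triangles for the shallower library and a line at their mean. Within each genotype Cdo1 is lower in males than in females and Bhmt higher. The means of Mat1a and Papss2 are lowest in control males, and Ahcy stays between 57.4 and 75.6 FPKM.

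Pools of the same group often differed as much as the groups did. For 5 of the 9 genes the largest fold between the libraries of 1 group exceeded the fold between the highest and lowest group mean. Highest over lowest library, the range was 16.2-fold for Csad and 1.32-fold to 2.70-fold for the other 8. The shallower knockout female library held the highest value of Cth, Mat1a, Ahcy and Papss2. The shallower control male library held the highest value of Csad, Cbs and Bhmt and the lowest of Mat1a, Ahcy and Papss2, and the deeper knockout male library the lowest of Csad, Cdo1, Cbs and Gnmt. Among members, Cbs was most like Csad with a Pearson correlation of 0.78 over the 8 libraries, and Papss2 least like it with -0.78. Without the shallower control male library these were 0.68 and -0.43, and Bhmt was then least like Csad with -0.66.

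The difference between the sexes in the effect of the knockout was tested for the 8 genes besides Csad with limma on log2(FPKM + 1). It passed the threshold for 0 of 8, where 0.0111% of 18004 genes did, and 0 of 8 had an unadjusted p under 0.05, beside 5.48% of genes. The lowest unadjusted p was that of Cbs at 0.16, with a difference of -0.64 and a standard error of 0.40. Voom called 0 of 8 and 0% of genes, and 5.1% of genes had an unadjusted p under 0.05 in it.

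Among 3557 other genes with a mean of at least 5 FPKM, the 5 whose log2(FPKM + 1) followed Csad most closely over the 8 libraries were Sdr42e1, Prkar1a, Pnpla7, Rabggtb and Tars. Sdr42e1, a short-chain dehydrogenase/reductase gene, had a Pearson correlation of 0.99, also 0.99 without the shallower control male library. Its range was 12.5 to 22.8 FPKM, 1.82-fold, far narrower than that of Csad. Prkar1a, a regulatory subunit of protein kinase A, had 0.97, Pnpla7, a lysophospholipase, had 0.96, Rabggtb, a subunit of the enzyme that attaches lipid anchors to Rab proteins, had 0.96 and Tars, threonyl-tRNA synthetase, had 0.95. Without the shallower control male library these ran from 0.89 for Tars to 0.95 for Rabggtb. They are the highest of many correlations over 8 libraries that share their depth and group structure.

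Around the 9 genes, 96 further genes of the pathways were counted in 7 lists, 90 of them past the read filter. In knockout males 2 of the 96 rose and 0 fell in the authors' edgeR test, where 1.39% of all genes were called higher and 0.793% lower. In knockout females 4 rose and 2 fell, beside 1.04% and 0.508%. Control males were called higher than control females for 0 and lower for 2, beside 0.686% and 0.785%. Knockout males were called higher than knockout females for 0 and lower for 2, beside 0.533% and 0.479%. Among filtered genes 4% were called, higher and lower together, in knockout against control males and 2.85% in knockout against control females. The filtered share was 2.68% for control males against control females and 1.84% for knockout males against knockout females. At an unadjusted p under 0.05 in edgeR, 5 pathway genes were higher and 7 lower in knockout than in control males, where 11.1% of filtered genes were below that p. In knockout against control females 9 were higher and 4 lower, beside 9.91%. Control males had 7 higher and 6 lower than control females, beside 10.7%, and knockout males 3 higher and 10 lower than knockout females, beside 7.38%. These shares cover both directions together, for which the pathway genes numbered 12, 13, 13 and 13 of 96 in the same order. No share by direction is given at this unadjusted p. The 12 calls at an adjusted p under 0.05 belong to 7 genes, and voom and limma on log2(FPKM + 1) made 3 and 1 of them. The median log2 ratio of the filtered pathway genes was -0.05 in knockout males and 0.07 in knockout females, beside 0.01 and 0.00 over all filtered genes. No gene was called in the list of choline and glycine methyl donors (11 genes), of methionine salvage and polyamines (14 genes) or of sulfate activation and transport (7 genes) by the authors' edgeR test, voom or limma. In these lists the unadjusted p of edgeR was under 0.05 for at most 2, 2 and 1 genes in any comparison, where it was for 7.38% to 11.1% of filtered genes.

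Fmo1 and Got1 act on the products of Cdo1 and Csad. Fmo1 encodes a flavin monooxygenase that can oxidise hypotaurine to taurine, and Got1 the cytosolic aspartate aminotransferase, which can take cysteine sulfinate away from taurine synthesis. Fmo1 stood at 48.6 and 42.3 FPKM in knockout females, against 67.9 and 67.7 FPKM in control females. By the authors' deposited table it fell 1.64-fold in knockout females. The adjusted p-values were 0.0069 by edgeR, 0.042 by voom and 0.29 by limma on log2(FPKM + 1). Over 13 alternative settings Fmo1 had a log2 ratio from -0.82 to -0.57 in this comparison. In males it had 34.8 and 36.3 FPKM in knockouts and 29.7 and 33.5 FPKM in controls, with a ratio of 1.14 and an edgeR adjusted p of 1 by the authors' deposited table. Control males were 2.38-fold below control females by the authors' deposited table, where the adjusted p was 5e-07 by edgeR and 0.0014 by voom. The difference between the sexes in the knockout effect was 0.74 with a standard error of 0.15, an unadjusted p of 0.0025 and an adjusted p of 0.66 in limma.

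Got1 stood at 6.78 and 18.2 FPKM in knockout males and 25.7 and 27.9 FPKM in control males, and at 31.9 and 32.1 FPKM in knockout females and 58.2 and 40.5 FPKM in control females. Knockout libraries lay below control libraries in both sexes. By the authors' deposited table Got1 fell 1.69-fold in knockout females, at an edgeR adjusted p of 0.015, while the 2.16-fold difference in males had 0.062. Got1 was also 2.03-fold lower in control males than in control females, with 0.0012, and 2.56-fold lower in knockout males than in knockout females, with 0.0068, in the authors' deposited table. Between knockout males and knockout females the voom difference was -1.51 on the log2 scale, -0.85 without the deeper knockout male library and -2.16 without the shallower one. Voom called none of the Got1 differences.

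Vnn1 encodes a pantetheinase, which releases cysteamine, another precursor of hypotaurine. It was at 9.31 and 2.85 FPKM in knockout females, against 0.549 and 1.84 FPKM in control females. The rise was 4.69-fold by the authors' deposited table, at an adjusted p of 0.0053 by edgeR and 0.26 by voom. The voom difference was 2.58 on the log2 scale, 1.68 and 3.38 without the deeper and the shallower knockout female library, and 1.33 and 3.15 without the deeper and the shallower control female library. Knockout males stood at 1.65 and 1.40 FPKM, 3.91-fold below knockout females by the authors' deposited table, at an adjusted p of 0.00064 by edgeR and 0.44 by voom. There the voom difference was -1.77, and -0.89 and -2.58 without the deeper and the shallower knockout female library.

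Slc3a1 and Nnmt were the rises in knockout males. Slc3a1, a subunit of the cystine and dibasic amino acid transporter, stood at 29.2 and 47.6 FPKM in knockout males against 15.3 and 18.2 FPKM in control males. It rose in both sexes by the authors' deposited table, 2.31-fold in males at an edgeR adjusted p of 0.00018 and 1.78-fold in females at 0.0050. Voom called it in males, with 0.034, and not in females, with 0.19. Female levels were 21.6 and 29.7 FPKM in knockouts and 13.6 and 12.6 FPKM in controls.

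Nnmt, nicotinamide N-methyltransferase, consumes S-adenosylmethionine to methylate nicotinamide. It had 38.3 and 69.1 FPKM in knockout males, against 7.73 and 2.88 FPKM in control males. By the authors' deposited table it rose 9.19-fold, where the adjusted p was 3.4e-13 by edgeR and 0.11 by voom. The voom difference was 3.02 on the log2 scale, and 4.22 and 2.65 without the deeper and the shallower control male library. In females it had 28.5 and 65.1 FPKM in knockouts and 23.8 and 6.48 FPKM in controls, a ratio of 2.83 by the authors' deposited table, where the edgeR adjusted p was 0.069. Macrophage markers also stood higher in knockout than in control males. The 8 Kupffer cell markers summed to 54.5 and 52.9 FPKM in knockout males and to 34.7 and 35.4 FPKM in control males, the lowest group. In females they summed to 48.6 and 63.6 FPKM in knockouts and 47.9 and 46.0 FPKM in controls. The 5 bile duct markers summed to 37.7 and 28.9 FPKM in knockout males, against 2.75 and 6.85 FPKM in control males. In females the bile duct sums were 6.15 and 9.32 FPKM in knockouts and 5.62 and 5.12 FPKM in controls. The part of each single gene in these sums is not given. The 8 pancreas markers summed to 3.19 and 6.96 FPKM in knockout males, against 9.38 and 11.2 FPKM in control males, mostly from Cela1. The other 7, set apart after their values were seen, summed to 22 and 63 reads in knockout males, at library totals of 31686769 and 29512042, against 6 and 0 reads in control males, at 29149624 and 6192515. The part of these markers in the results for males, Csad included, was not tested.

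Chac1 and Fpgs rose in knockout females. Chac1, whose product degrades glutathione, stood at 1.55 and 2.27 FPKM in knockout females against 0.773 and 0.890 FPKM in control females, 2.12-fold higher by the authors' deposited table, at an edgeR adjusted p of 0.036. Fpgs, which adds glutamates to folates and so keeps them in the cell, stood at 20.6 and 19.5 FPKM in knockout females against 13.2 and 10.1 FPKM in control females, 1.56-fold higher by the authors' deposited table, at 0.046. Voom called neither.

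**Figure D4:**
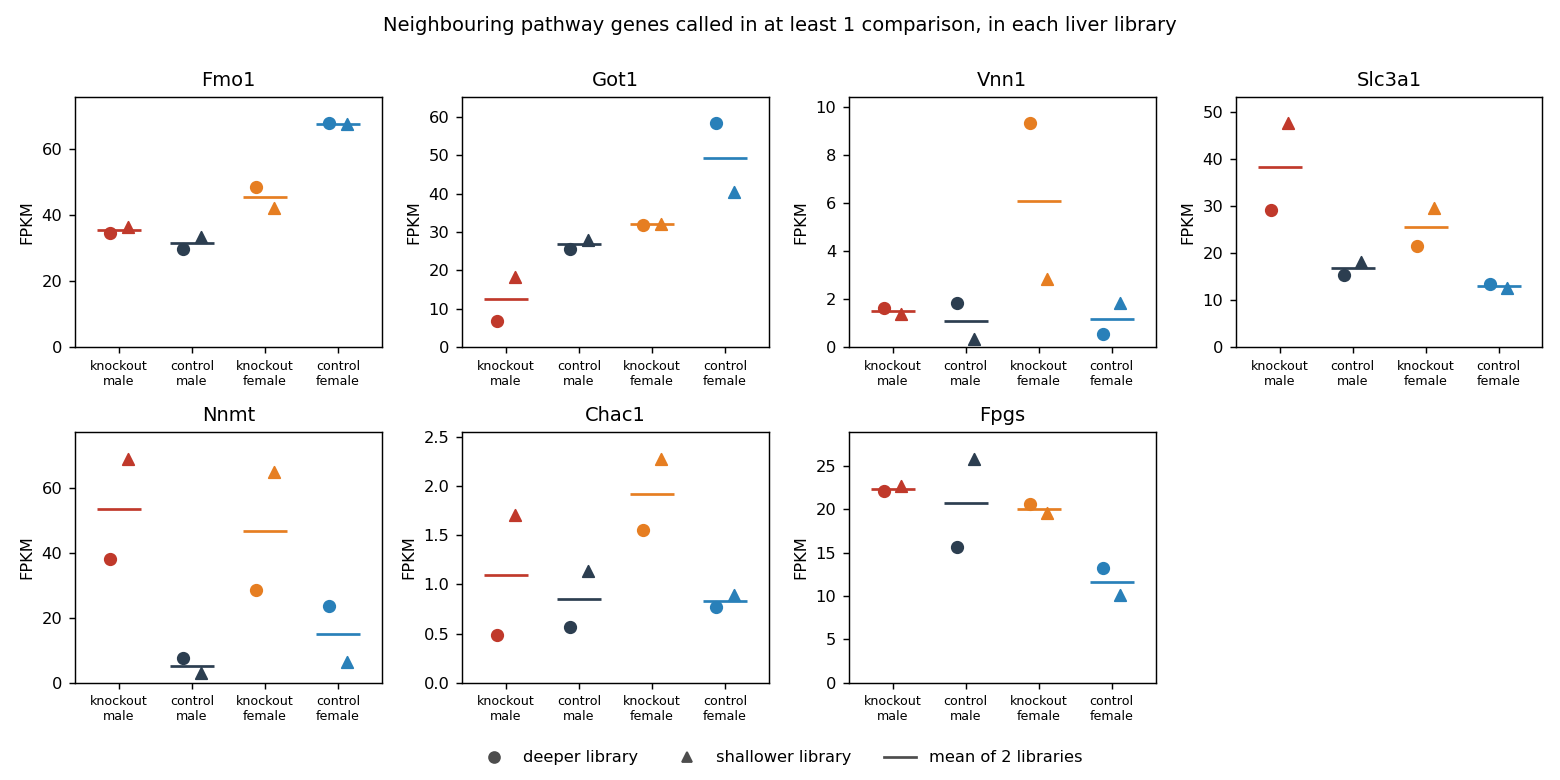
FPKM (y axis of each panel) of the 7 pathway genes called in at least 1 comparison, in each library by group (x axis), with circles for the deeper and triangles for the shallower library and a line at their mean. Fmo1 and Got1 are highest in control females, Slc3a1 and Nnmt are higher in the knockout libraries of both sexes, and Vnn1 is highest in the deeper knockout female library at 9.31 FPKM.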

How the data were processed

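RNA of mouse liver was sequenced in 8 libraries, 2 in each of 4 groups. Per the submitters' processing notes, TopHat2, featureCounts and edgeR were used on build mm9. Their versions were not given in the sources used here. Of each group the deposited table gives, per the file headers, the mean FPKM as the authors computed it. It also holds the authors' normalized expression ratio and the same ratio as a signed fold score, deposited for each of 4 comparisons. The deposited p-value and adjusted p-value are those of the authors' edgeR test, per the file headers. The adjusted value was checked to be the Benjamini-Hochberg adjustment over all 24197 genes within 2.5e-08.

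The 9 members and all gene lists were chosen with earlier results of these data known. In a mean FPKM, each of 2 libraries adds its whole reads over its own total and over gene length. Library totals follow from genes with a single read, and gene lengths were searched until all 4 groups gave whole reads. This solved all 18004 genes with reads, and the FPKM recomputed from them differed from the deposited FPKM by at most 2.2e-11. The recovery was tested on simulated reads. Low read numbers with a common divisor can come out too small, which leaves FPKM unaffected. A recovered library has no pool number or library code. The sample titles carry a code beginning with G, whose meaning is not stated. It is the same for both libraries within knockout females, within control females and within control males, and differs between these groups. Of the knockout male titles, the first carries the code of control females and the second that of control males. In knockout against control females and in both sex comparisons, group and code thus cannot be told apart.

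The main calls are those of the authors' edgeR test. Limma 3.58.1 (R 4.3.3) was fitted with trend on log2(FPKM + 1) to all 8 libraries, and as voom on the recovered reads of 12981 genes with at least 10 reads in at least 2 libraries, scaled by the median of ratios. Both were tested on simulated reads. A log2(FPKM + 1) scale understates changes of low genes. The ratio of mean FPKM exceeds the authors' ratio by a median of 0.14 (log2) for knockout against control females and 0.15 for control males against control females, so library levels and overlaps, which are in FPKM, carry that shift. Named were the 9 members, Stat5a and Stat5b, the listed pathway genes that were called, and the 5 genes most like Csad. Zfp740 was added after its values were seen, because it overlaps Csad. Promoter sequences are those of RefSeq on GRCm38.p6. The alternatives tried were other pseudocounts, filters and scalings, and leaving out each library.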

Additional observations from a re-analysis of the deposited data

How the results depend on the processing

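Csad was tested only in knockout against control females. The count of members called covers all 9 there and the 8 besides Csad elsewhere. It stayed at 0 in the 4 comparisons and in the test of the difference between sexes. This held under limma with a pseudocount of 1 or 0.1 and under voom with or without the filter or the scaling. A 2-fold limit on top of a call can only lower the count, so its 0 was fixed in advance. Leaving out 1 library in voom gave 0 to 1 members called in knockout against control males and 0 to 1 in control males against control females. The member gained was Cbs, without the shallower knockout male library, and Mat1a, without the deeper control male library, each with 1 library left in an arm that is assumed to vary like the other groups. No called value of the genes named changed sign. Of the 12 calls of pathway genes, voom made 3, limma on log2(FPKM + 1) made 1, and voom with 1 library left out made 1 to 4; the cause was not tested. No paired analysis was possible because the recovered libraries carry no pool number. Depth limits the shallower control male library most, with 2288039 reads in genes.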
